A study of Pan troglodytes and Macaca mulatta with 12 samples.

Results

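Interferon-stimulated genes are the genes that a cell switches on after it senses interferon, and 42 of them, defined by their Ensembl gene identifiers, are described here in lymphoblastoid cell lines of 2 primates. The set takes in ISG15, the IFI, IFIT, IFITM and MX genes, the DDX RNA helicases, STAT2, IRF7, IRF9, HERC5, HERC6, the SAMD9, PARP and related genes. The OAS and GBP families are left out of it. The files give identifiers only, and symbols were assigned to them as described with the processing. The rule that defines the members uses their names and no level in these libraries. Of the 42 members, 36 were found among the 16903 genes with a counted exon, and 33 of these were abundant enough to test, among 9440 genes tested in all. IFIT1, IFIT3 and SAMD9 were found but fell below the filter on low counts. IFITM1, IFITM2, IFITM3, USP18, EPSTI1 and UBE2L6 were not analysed here.

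The 12 libraries came from lymphoblastoid lines, B lymphocytes that have been made to divide without limit in culture, and each line came from its own individual. The chimpanzee (Pan troglodytes) group held 6 lines, 3 from males and 3 from females. The rhesus macaque (Macaca mulatta) group held 6 lines, 4 from males and 2 from females. Both groups were grown in RPMI-1640 with fetal bovine serum, and the labels name no interferon, virus or other treatment. They give neither the age of the animals nor the way in which the lines were immortalised. The comparison between species asks how the resting level of these genes differs between the 2 primates. Besides species and sex, the labels give no difference between the groups.

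Type I interferons bind the receptor chains IFNAR1 and IFNAR2, whose kinases JAK1 and TYK2 phosphorylate STAT proteins, STAT2 among them. STAT2 and IRF9 belong to a complex that enters the nucleus and switches on interferon-stimulated genes. Many of the products act against viruses, and several, among them STAT2, IRF7 and IRF9, are parts of the pathway itself. Some of these genes are also transcribed at a resting level without added interferon.

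Total counts over exons ran from 1434241 to 4751954 per library, and chimpanzee 1 was the smallest library. Levels are given as CPM, a gene's counts scaled to a common library total. A count of 3 in a library corresponded to between 0.631 and 2.09 CPM. Of 7 B cell markers, 6 were measured, and their summed level was 2895 to 8857 CPM in chimpanzee and 5455 to 10259 CPM in rhesus macaque. Among 4 T cell markers, CD3D, CD3E and CD3G had no count in any chimpanzee library. CD3D was at 170.7 CPM in rhesus macaque 6 and at 99.2 CPM in rhesus macaque 2. Summed over the list, T cell markers reached at most 32.1 CPM in a chimpanzee library (lowest 2.46 CPM) and 189.7 CPM in a macaque library (lowest 1.83 CPM). Of the 6 B cell markers, 3 were higher in chimpanzee (MS4A1, PAX5 and CD22) and 1 was lower (CD74). Whether this moves with the members was not tested. Myeloid markers summed to at most 25.8 CPM and fibroblast markers to at most 41.97 CPM in any library. The markers of plasmacytoid dendritic cells, the main interferon producers in blood, were not analysed here. Without rhesus macaque 2 and 6, a setting chosen after seeing the data, 20 members were called higher in chimpanzee and 3 lower, against 21 and 3 with all libraries, and IFI35 did not pass (log2 fold change 0.60, adjusted p = 0.0922). In bulk libraries, fewer cells of a type and less RNA per cell cannot be told apart.

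More interferon-stimulated genes were higher in the chimpanzee lines than in the macaque lines. Of the 33 members tested, 21 were higher in chimpanzee, 3 were lower (IFI27, MX2 and IFI6), and 9 did not pass the test. Over all 9440 genes, 24.7% were called higher and 23.6% lower, so that 48.3% were called in either direction, against 72.7% of the members. The median log2 fold change (chimpanzee over macaque) was 1.11 over the members and 0.04 over all genes tested. Calls rest on edgeR's quasi-likelihood test with Benjamini-Hochberg adjustment over all genes tested, at a threshold of 0.05. Beyond a 2-fold difference, 15 members were called, where 17.3% of all genes were. The plot of species differences by member shows the values with their errors.

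**Figure D1:**
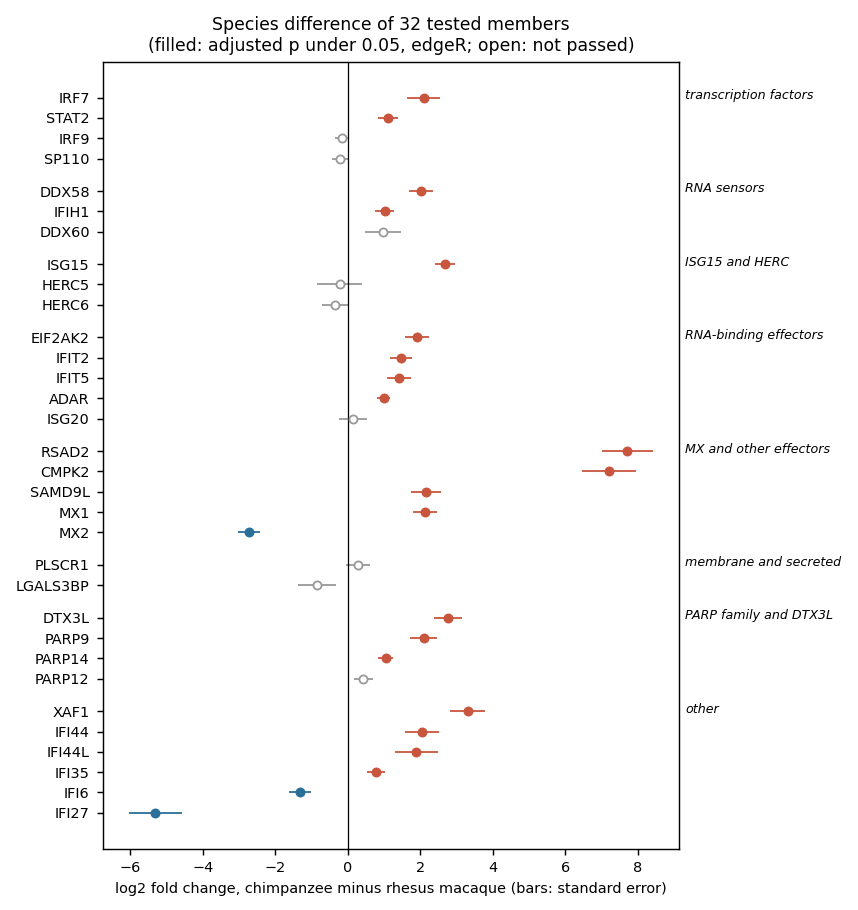
Species difference of 32 tested members as log2 fold change, chimpanzee over rhesus macaque (x axis), with its standard error as a bar; members are ordered by role and filled points passed the test at an adjusted p under 0.05. RSAD2 and CMPK2 lie farthest to the right, at 7.71 and 7.20, and IFI27 farthest to the left, at −5.31.

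The 12 libraries did not overlap for 17 members. In 15 of them all chimpanzee libraries lay above all macaque libraries, and in 2, IFI27 and MX2, all macaque libraries lay above. Of all genes, 27.1% did not overlap, 13.3% with chimpanzee above and 13.8% with macaque above. With the call required as well, these shares were 13.3% and 13.7%. Some members passed the filter mainly through one species: no macaque library reached the filter level of 3.97 CPM for RSAD2 or CMPK2, and 1 chimpanzee library reached it for IFI27. XAF1 reached it in 6 chimpanzee and 3 macaque libraries, IFI44L in 6 and 2, and IFI44 and HERC5 in 6 and 5. RSAD2, CMPK2, IFI27 and XAF1 are among the 17 members without overlap and the 15 called beyond 2-fold. IFI44 is also among the 15, and neither count is given without these members. Among the 26 members at the filter level in all 12 libraries, 16 were higher in chimpanzee and 2 lower, with a median log2 fold change of 1.03. The 7158 genes that met the same condition were called higher in 22.3% and lower in 21.8%, with a median of 0.03.

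**Figure D2:**
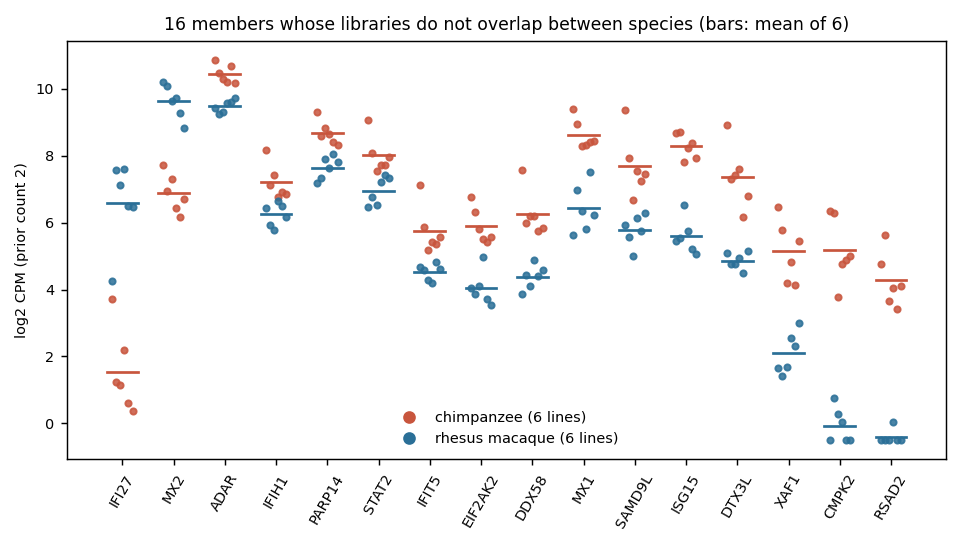
Level of 16 of the 17 members whose libraries did not overlap (x axis, by rising fold change) as log2 CPM with a prior count of 2 (y axis); each point is 1 library, coloured by species, and bars are means of 6. The chimpanzee points lie above the macaque points for 14 members and below them for IFI27 and MX2.

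The transcription factors of the response split. STAT2 and IRF7 were higher in chimpanzee, and IRF9 and SP110 did not pass the test. STAT2, which carries the signal of the type I receptor, had a lowest, median and highest level of 184, 229 and 538 CPM in chimpanzee and 87.3, 128 and 172 CPM in macaque. These did not overlap, with chimpanzee 1 far above the other chimpanzees, at a log2 fold change of 1.11 (SE 0.28, n = 6 per species, edgeR adjusted p = 0.00489). IRF7, which drives transcription of interferon genes themselves, reached 48.1 to 203 CPM in chimpanzee (median 136) and 8.22 to 54.0 CPM in macaque (median 36.8). Its lowest chimpanzee library, chimpanzee 1, lay within the macaque range, and the log2 fold change was 2.09 (SE 0.46, adjusted p = 0.00207).

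IRF9, the DNA-binding part of the complex with STAT2, did not differ detectably between the species. It had a median of 152 CPM in chimpanzee and 168 CPM in macaque, the ranges overlapped, and the log2 fold change was −0.17 (SE 0.19, adjusted p = 0.488). SP110, a nuclear body protein, was likewise at medians of 117 and 152 CPM (log2 fold change −0.22, adjusted p = 0.430).

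The helicases that sense viral RNA were called higher in 2 of 3 cases. DDX58, which encodes RIG-I, had a lowest, median and highest level of 53.7, 67.6 and 188 CPM in chimpanzee and 14.0, 20.5 and 29.1 CPM in macaque. The libraries did not overlap, and chimpanzee 1 stood well above the other 5. Its log2 fold change was 2.02 (SE 0.33, adjusted p = 0.000188). IFIH1, which encodes MDA5, the sensor of long double-stranded RNA, ran from 107 CPM (median 128) to 287 CPM in chimpanzee and from 54.3 CPM (median 79.0) to 101 CPM in macaque. The gap between the groups was small, with a log2 fold change of 1.02 (SE 0.26, adjusted p = 0.00523). DDX60, a helicase related to the sensors, varied widely among the chimpanzees, from 15.3 CPM (median 54.7) to 202 CPM, against 16.9 to 55.8 CPM in macaque (median 36.5). All macaque libraries lay within the chimpanzee range (log2 fold change 0.97, SE 0.50, adjusted p = 0.120). DDX60 turned on single lines: without chimpanzee 1, the highest library, it was at 0.31 (adjusted p = 0.523), and without chimpanzee 5, the lowest, it passed the test at 1.16 (adjusted p = 0.0413).

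ISG15 encodes a ubiquitin-like protein that is joined to other proteins, and HERC5 and HERC6 are related ligases, of which HERC5 attaches ISG15 in human cells. ISG15 (ENSG00000187608; chromosome 1, 939227 to 939782 in the files' coordinates, for which the labels state no build) was counted on a single exon. It was at 226, 318 and 419 CPM (lowest, median, highest) in chimpanzee and at 32.9, 44.1 and 92.2 CPM in macaque. The 2 ranges lay far apart, and the log2 fold change was 2.68 (SE 0.27, adjusted p = 4.36e-06). The ligases did not follow: HERC5 had medians of 22.7 CPM in chimpanzee and 23.6 CPM in macaque, with adjusted p = 0.789. In macaque HERC5 ran from 0.610 to 44.8 CPM, the widest range of any member there on the log2 CPM scale. Its lowest macaque library, macaque 1, held 1 count, below the limit of 3 counts. In chimpanzee HERC5 ran from 5.10 to 29.997 CPM. All chimpanzee libraries lay within the macaque range, and the log2 fold change was −0.23 (SE 0.62). HERC6 had a log2 fold change of −0.35 (SE 0.36, adjusted p = 0.445), and without chimpanzee 1 it passed the test at −0.77 (adjusted p = 0.0369). The direction of HERC6 rested on exon 19, which held 55.5% of its counts. Of 13 exons with enough counts, 3 went in the direction of the gene. Without exon 19 the log2 fold change was 0.52 (edgeR adjusted p = 0.315).

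Effectors that bind RNA were higher in chimpanzee for 4 of 5 tested members. EIF2AK2, which encodes the kinase PKR that halts translation, was at 42.4, 51.2 and 108 CPM (lowest, median, highest) in chimpanzee and 10.8, 14.8 and 30.7 CPM in macaque. The libraries did not overlap (log2 fold change 1.91, SE 0.32, adjusted p = 0.000244). ADAR, the enzyme that edits adenosine to inosine in double-stranded RNA, was one of the most abundant members in both species. It ran from 1162 CPM (median 1336) to 1872 CPM in chimpanzee and from 604 CPM (median 723) to 840.3 CPM in macaque, again without overlap. Its log2 fold change was 0.99 (SE 0.17, adjusted p = 0.000340).

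The IFIT proteins bind RNA with foreign ends. IFIT5, counted on 1 exon, was at 35.7, 44.3 and 139.5 CPM in chimpanzee and 17.8, 23.4 and 27.7 CPM in macaque. No library overlapped, and chimpanzee 1 was far above the rest (log2 fold change 1.40, SE 0.33, adjusted p = 0.00283). IFIT2 had medians of 58.1 and 17.6 CPM, with a small overlap of the ranges (log2 fold change 1.47, SE 0.30, adjusted p = 0.00119). IFIT1 and IFIT3 were hardly counted at all. IFIT1 had 27 counts over the 6 chimpanzee libraries and 0 over the 6 macaque libraries. Against a floor of 3 counts over the macaque group the level was 9.25-fold higher, with the counting error of the 27 left out. IFIT3 had 13 and 4 counts, a ratio of 3.34 scaled for library size (95% exact interval 1.03 to 14.1, counting error only). ISG20, an exonuclease, did not pass the test, with medians of 85.9 and 83.4 CPM (log2 fold change 0.13, SE 0.38, adjusted p = 0.799).

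The group of GTPases and nucleotide-acting effectors held 5 tested members, RSAD2, CMPK2, MX1, MX2 and SAMD9L. RSAD2 and CMPK2 reached the filter level in chimpanzee libraries alone, so their values are given as a description. RSAD2 (ENSG00000134321; chromosome 2, 6935247 to 6951285) encodes viperin, an enzyme that makes a chain-terminating nucleotide, and CMPK2 a mitochondrial nucleotide kinase. They are neighbours, 11.95 kb apart in the files. RSAD2 was at 10.1, 16.1 and 48.4 CPM (lowest, median, highest) in chimpanzee. In macaque it had 1 count in 1 library, macaque 4, and 0 counts in the other 5. CMPK2 was at 13.1, 30.1 and 80.2 CPM in chimpanzee and had 4 counts over all macaque libraries. Both genes were thus counted in every chimpanzee line and near the limit of counting in every macaque line.

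Pooled counts for RSAD2 were 338 in chimpanzee and 1 in macaque, a ratio of 347 scaled for library size (95% exact interval 61.9 to 13764). For CMPK2 they were 639 and 4, a ratio of 164 (63.8 to 605). These intervals cover counting error only. The fitted log2 fold changes, 7.71 for RSAD2 and 7.20 for CMPK2, depend on the prior count at such low levels. They moved to 8.90 for RSAD2 without macaque 4 and to 7.86 for CMPK2 without macaque 2, the library that held 2 of the 4 counts.

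MX1 and MX2 encode dynamin-like GTPases that block viruses and lie side by side on chromosome 21, 11.6 kb apart. They differed between species in opposite directions. MX1 was at 312, 343 and 681 CPM in chimpanzee and 48.8, 78.0 and 182 CPM in macaque. MX2 (ENSG00000183486; 41670633 to 41702740) was at 71.8, 113 and 209 CPM in chimpanzee and 457, 819 and 1184 CPM in macaque. Neither gene's libraries overlapped between species: MX1 was higher in every chimpanzee line and MX2 in every macaque line. The log2 fold changes were 2.12 for MX1 (SE 0.33, adjusted p = 0.000140) and −2.74 for MX2 (SE 0.30, adjusted p = 8.22e-06).

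SAMD9L, a growth-restraining antiviral protein, was at 102, 181 and 659 CPM in chimpanzee and 31.4, 56.8 and 77.0 CPM in macaque. No library overlapped (log2 fold change 2.15, SE 0.41, adjusted p = 0.000629). Its neighbour SAMD9 had 9 counts over the chimpanzee libraries and 0 over the macaque libraries. Against the floor of 3 counts over the macaque group the level was 3.08-fold higher, with the counting error of the 9 left out.

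Of the PARP family, whose members transfer ADP-ribose, 3 of 4 members including the partner gene DTX3L were higher in chimpanzee. DTX3L, a ubiquitin ligase that works as a pair with PARP9, lies 11.7 kb from it on chromosome 3. DTX3L was at 71.0, 165 and 481 CPM (lowest, median, highest) in chimpanzee and 21.7, 28.4 and 34.6 CPM in macaque, without overlap. Its log2 fold change was 2.77 (SE 0.39, adjusted p = 5.45e-05). PARP9 had medians of 158 and 39.4 CPM, a lowest chimpanzee library within the macaque range, and a log2 fold change of 2.09 (SE 0.36, adjusted p = 0.000336). PARP14 was at 323, 392 and 629 CPM in chimpanzee and 144, 211 and 263 CPM in macaque. Its libraries did not overlap, with a log2 fold change of 1.04 (SE 0.21, adjusted p = 0.000971). PARP12, a zinc finger member of the family, had medians of 178 and 130.3 CPM and did not pass the test (log2 fold change 0.42, SE 0.26, adjusted p = 0.198). Without chimpanzee 5, its lowest library, it passed at 0.58 (adjusted p = 0.0157).

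The remaining interferon-induced genes differed in both directions, with 4 of 6 higher in chimpanzee and 2 lower. IFI27 (ENSG00000165949; chromosome 14, 93646832 to 93652786) encodes a small membrane protein. In chimpanzee it was at 0.589, 1.57 and 12.6 CPM (lowest, median, highest), and in macaque at 18.3, 114 and 195 CPM. All macaque lines lay above all chimpanzee lines, although both groups spread widely, chimpanzee 1 being the highest chimpanzee and macaque 1 the lowest macaque. IFI27 reached the filter level in 1 chimpanzee library and in 6 macaque libraries, so its values are given as a description. The fitted log2 fold change was −5.31 (SE 0.73), and −6.20 without chimpanzee 1. IFI6, a related membrane protein that limits cell death, was also lower in chimpanzee, with medians of 163 and 352 CPM and overlapping ranges (log2 fold change −1.32, SE 0.30, adjusted p = 0.00225). Among males only, IFI6 did not pass the test (−0.91, adjusted p = 0.121).

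XAF1, a protein that favours cell death, was at 16.9, 35.4 and 87.2 CPM in chimpanzee and 1.97, 3.36 and 7.35 CPM in macaque. The ranges did not overlap (log2 fold change 3.30, SE 0.48, adjusted p = 7.15e-05). The neighbours IFI44 and IFI44L, 14.3 kb apart, were both higher in chimpanzee. IFI44 had medians of 35.3 and 7.79 CPM, and IFI44L of 8.06 and 2.53 CPM, with overlap in both. Their log2 fold changes were 2.06 (SE 0.47, adjusted p = 0.00242) and 1.89 (SE 0.59, adjusted p = 0.0167). Without chimpanzee 1, IFI44L was at 1.28 and did not pass (edgeR adjusted p = 0.0515). XAF1 reached the filter level in 3 macaque libraries and IFI44L in 2. Both passed the filter through the chimpanzee lines, so their values are given as a description. IFI35, a leucine zipper protein, was higher with overlapping ranges (log2 fold change 0.78, SE 0.24, adjusted p = 0.0160).

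The membrane and surface proteins did not pass the test in either case. LGALS3BP, a secreted glycoprotein that binds galectins, had a lowest, median and highest level of 14.1, 145 and 332 CPM in chimpanzee. This was the widest range of any member there on the log2 CPM scale. In macaque it was at 155, 267 and 421 CPM. Chimpanzee 5 was the low library, and the ranges overlapped (log2 fold change −0.86, SE 0.52, adjusted p = 0.185). PLSCR1, a phospholipid scramblase, had medians of 40.7 and 29.3 CPM (log2 fold change 0.27, SE 0.33, adjusted p = 0.520).

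Per length of counted exon, the order of the members differed between the species. Levels per kb are means ± SD over 6 lines. In chimpanzee ISG15 stood first at 579 ± 145.1 CPM per kb, then IFI6 at 400.2 ± 179.3, and, further down, MX1 at 241 ± 85.02 and ADAR at 217 ± 43.2. The means ± SD of ISG15 and IFI6 overlapped, as did those of MX1 and ADAR. Taken line by line, ISG15 lay above IFI6 per kb in every chimpanzee line. In macaque IFI6 stood first at 1001 ± 378.3 CPM per kb, then MX2 at 344 ± 114, IFI27 at 255 ± 144 and LGALS3BP at 137 ± 51.7, and ISG15, the seventh, was at 90.7 ± 38.8. The mean ± SD of IFI6 lay above that of MX2, and those of MX2 and IFI27 overlapped. MX2, the second in macaque, was at 51.7 ± 21.0 CPM per kb in chimpanzee, where MX1 was at 241 ± 85.02. MX1 was at 55.2 ± 29.4 CPM per kb in macaque. RSAD2, with 20.4 ± 13.6 CPM per kb in chimpanzee, was at 0.0510 ± 0.125 in macaque.

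Lines of 1 species also differed from each other across the gene set. Chimpanzee 1 was the highest of the 6 chimpanzee lines for 23 of 33 members (69.7%), where it was highest for 28.5% of all genes. Its members lay a median 0.83 above the mean of the species on the log2 CPM scale, where all its genes lay at −0.02. It exceeded the mean of the other chimpanzee lines more than 2-fold for 16 members. IRF7, IRF9 and IFI6 went the other way and were lowest in this line. Chimpanzee 5 was the lowest line for 14 members (42.4%, all genes 19.0%). Among the macaques, macaque 4 was highest for 11 members (33.3%, all genes 14.7%), and the median deviations of the 6 lines stayed between −0.18 and 0.21.

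The summed level of the members was 5248 to 10621 CPM in chimpanzee, highest in chimpanzee 1, and 3550 to 4753 CPM in macaque. The 2 species' sums did not overlap, but this rested on abundant members. ADAR made up 1636 CPM of the lowest chimpanzee sum (chimpanzee 5) and 764 CPM of the highest macaque sum (macaque 4). The median SD between lines was 0.66 on the log2 CPM scale for members in chimpanzee (all genes 0.48) and 0.49 in macaque (all genes 0.45). Without chimpanzee 1 the chimpanzee value was 0.50. Chimpanzee 1 was also the smallest library and the lowest chimpanzee line in the B cell markers MS4A1 (92.8 CPM, others up to 1575 CPM), CD79B (33.5 CPM) and CD74 (1999 CPM), and whether either has a part in the spread was not tested.

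**Figure D3:**
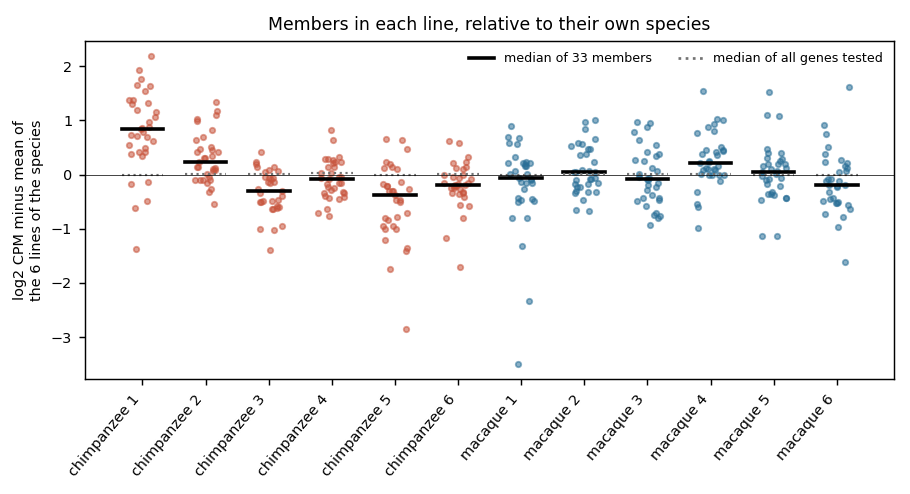
Deviation of each tested member from its species mean on the log2 CPM scale (y axis) in each line (x axis); points are the 33 members, black bars their median and dotted lines the median of all genes tested. The chimpanzee 1 members sit highest, at a median of 0.83, and the macaque lines' medians lie between −0.18 and 0.21.

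Counts of single exons showed whether a difference in gene level rested on a few exons. For 23 of the 24 called members, every exon with enough counts differed in the same direction as its gene. The exception was PARP14, with 14 of 17 exons. The same share over all called genes is not given here, so this is not a trait particular to the members. ISG15 and IFIT5 rested on 1 exon each. The share of a gene's counts that fell on each exon was called different between species for 3 of 31 members with 2 or more exons (9.68%, all genes 4.27%), in edgeR's exon test with Simes' method. These were MX1 (adjusted p = 1.31e-10), SP110 (adjusted p = 1.11e-08) and PARP12 (adjusted p = 0.0282). Of 281 single exons, 7 were called (2.49%, all exons 0.852%), and all 7 took a larger share in chimpanzee.

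In MX1, exon 3 (numbered as in the files; 112 bases; chromosome 21, 41721552 to 41721663) held 8.03% ± 2.54 (SD, n = 6) of the gene's counts in chimpanzee, 515 counts. In macaque it held 0 of 1705 counts, which allows a share of up to 0.176%, counting error only. On exons counted in at least 3 libraries of each species, the log2 fold change of MX1 as a gene was 2.01, close to the value over all exons. In SP110, which did not pass the test in gene level, exon 1 (1945 bases) took 15.3% ± 4.46 of the gene's counts in the chimpanzee lines and 2.04% ± 1.86 in the macaque lines. Exons 2, 3 and 6 of SP110 and exon 6 of PARP12 (3.90% ± 1.18 against 0.856% ± 0.528) were also called. Use of an exon and how well reads of each species are placed on it are confounded with species and cannot be told apart here.

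**Figure D4:**
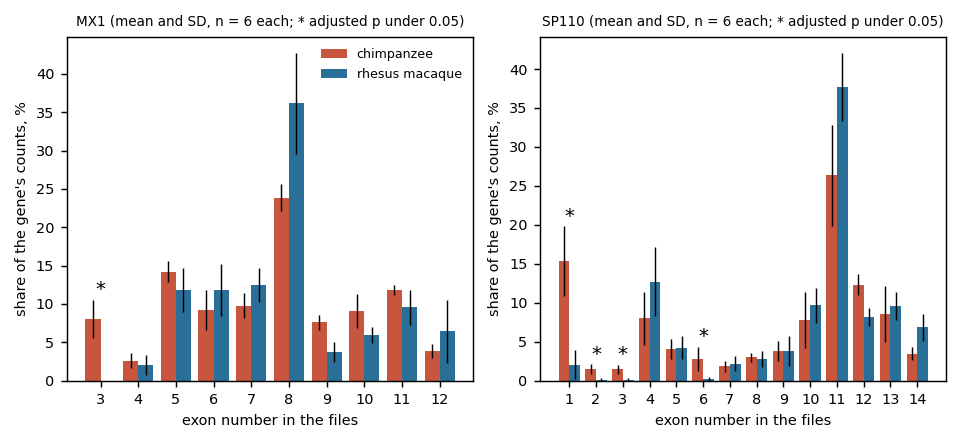
Share of a gene's counts on each counted exon, in percent (y axis), by exon number (x axis), for MX1 and SP110; bars are means over the 6 lines of a species, error bars SDs, and stars mark exons that passed the test. MX1 exon 3 is at 8.03% in chimpanzee and at 0 in macaque.

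The rest of the interferon pathway was read from a list of 26 receptors, kinases, transcription factors, inducers and regulators, of which 23 were tested. Here 8 were higher in chimpanzee and 6 lower, 60.9% in all where 48.3% of all genes were called, and the median log2 fold change was 0.53. Without rhesus macaque 2 and 6, 5 were higher and 6 lower. Values in brackets are log2 fold changes. Of the 4 receptor chains, 3 were higher: IFNAR2, the signalling chain of the type I receptor (1.79, SE 0.21, adjusted p = 1.38e-05), and both chains of the interferon-gamma receptor, IFNGR1 (1.73, adjusted p = 0.000332) and IFNGR2 (1.98, adjusted p = 0.000147). IFNAR1, the other type I chain, was at 0.53 (SE 0.42, adjusted p = 0.310). TYK2, the kinase bound to IFNAR1, was higher (1.44, adjusted p = 0.000404). STAT3 (0.69), TBK1 (0.68), PIAS1 (0.53) and TRIM25 (1.46), the ligase that activates RIG-I, were higher as well.

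Of the 6 that were lower, IRF8, a factor of B cell and myeloid development, differed most, with medians of 65.3 CPM in chimpanzee and 840.0 CPM in macaque (−3.53, SE 0.24, adjusted p = 1.28e-07). IRF2, a repressor of interferon genes (−0.94), IRF3, an inducer of them (−0.97), and the adaptor TRAF3 (−0.80) were lower too. The phosphatases PTPN1 (−1.61) and PTPN2 (−0.84), which act on the kinases and STAT proteins, were lower in chimpanzee. IFNB1, which encodes interferon beta, had 6 counts over the chimpanzee libraries and 0 over the macaque libraries. No chimpanzee library held more than 2 of these counts, below the limit of 3 counts in a library. Against a floor of 3 counts over the macaque group the level was 2.06-fold higher, with the counting error of the 6 left out.

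**Figure D5:**
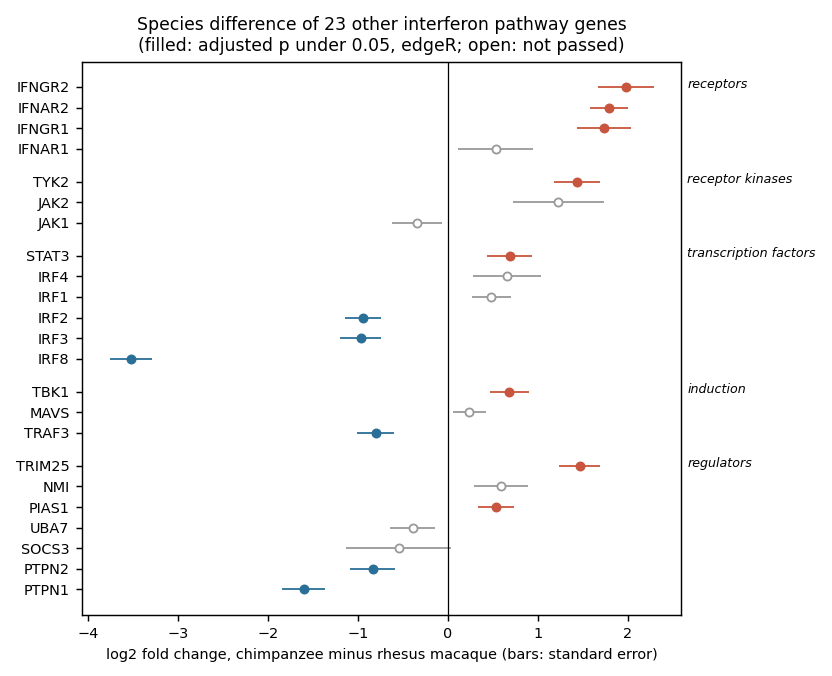
Species difference of each tested gene of the pathway list as log2 fold change, chimpanzee over rhesus macaque (x axis), with its standard error as a bar; filled points passed the test. IFNGR2 lies farthest to the right at 1.98 and IRF8 farthest to the left at −3.53.

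Sex was the other label of these lines. No member was called between females and males in chimpanzee or in macaque, or for the difference between the species, by edgeR's quasi-likelihood test on 4 groups of species and sex, and none was by DESeq2. Among all genes the share called by the edgeR test was 0% in each case. At an unadjusted p under 0.05 there were 4 members in chimpanzee (all genes 7.02%), 0 in macaque (2.2%) and 3 for the difference (5.18%). The median female minus male difference was −0.59 on the log2 scale in chimpanzee, positive for 4 of 33 members, and 0.19 in macaque, positive for 24. Over all genes the median was −0.03 in chimpanzee and −0.03 in macaque. Without chimpanzee 1, a male line, the chimpanzee median was −0.27 and 14 members were positive. Without macaque 4, a female line, the macaque median was 0.098 and 17 members were positive.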

How the data were processed

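RNA was extracted from cultured lines with a Qiagen RNeasy kit, and libraries were sequenced on a Genome Analyzer II, per the labels' protocols, which mark no strand. The authors deposited, for each library, whole-number read counts per exon, not normalized, with exons at 0 left out. For the aligner, the counter, the genome build and the rule that matched exons between species: not given in the sources used here. The replicate numbers follow accession order and only name a library.

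Counts of exons were summed per Ensembl gene identifier. Symbols were assigned from general knowledge of human Ensembl identifiers. Of the 36 members found, 35 had their symbol in the chimpanzee RefSeq table given with the data (assembly NHGRI_mPanTro3-v2.0_pri), all 14 pairs of members under 200 kb apart were also neighbours there, and no identifier matched that table directly. None of the members' exons overlapped an exon of another gene.

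Genes were filtered (filterByExpr, minimum count 10, minimum total 15), scaled by TMM and tested between species with edgeR 4.0.16 (quasi-likelihood test, R 4.3.3) over all genes, with glmTreat for a 2-fold difference. Standard errors are the fold change over the square root of F. CPM used TMM-scaled library sizes, and log2 CPM a prior count of 2. Exon shares used diffSpliceDGE on exons with at least 10 counts. Depth ran from 1434241 to 4751954 counts per library, with a floor of 3 counts taken as the limit of detection. Alternatives were DESeq2 1.42.0, other scaling, filters and exon sets, sex as a term, males only, thinning, and each library left out. Scripts were tested on simulated data.

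The members, the lists of pathway genes and markers and the rules were chosen with earlier results of these data known. Members were described by library where the species test was passed without overlap, or where they were among the 3 widest in a species. Width was the range on the log2 CPM scale. The others were described by medians or ranges. The values of 1 member are not reported here.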

Additional observations from a re-analysis of the deposited data

Results flagged for a closer look

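In 66 groups of 6 lines (33 members in 2 species), 8 held a line whose gap to its nearest neighbour took more of the group's whole range on the log2 CPM scale than Dixon's critical value. Dixon's value is set so that about 1 in 20 independent groups exceed it by chance. The 66 groups share the same lines and are not independent, and no share over all genes is given. The 8 groups are therefore a description. Chimpanzee 1 was the high line for DDX58 (188 CPM, next 73.6 CPM, share of the range 0.75), IFIT5 (139.5 and 58.2 CPM, share 0.642) and STAT2 (538 and 272 CPM, share 0.636).

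The low lines were chimpanzee 5 for PARP12 (61.7 CPM, next 168 CPM, share 0.706), chimpanzee 6 for HERC5 (5.10 and 16.5 CPM, share 0.653), macaque 1 for IFI27 (18.3 and 87.8 CPM, share 0.66) and macaque 6 for SP110 (89.8 and 134 CPM, share 0.629). Macaque 4 was the high line for RSAD2, with the single macaque count of that gene. Its share of 1 follows from the other 5 libraries being at 0 counts and says nothing about that line.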

How the results depend on the processing

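Over the other settings, including those chosen after seeing the data, 17 to 23 members were called higher in chimpanzee and 2 to 3 lower. With each library left out, 20 to 23 were higher and 3 to 4 lower. The pathway list moved among males only, to 5 higher and 2 lower, and with libraries left out gave 6 to 9 higher and 6 lower. Exon shares were called for 7 members by the gene-level F test and for 2 to 3 with libraries left out. No member was called by sex in any setting run. The members' median SD between lines ran from 0.50 to 0.74 in chimpanzee and from 0.41 to 0.51 in macaque with libraries left out. Without chimpanzee 1 and rhesus macaque 5 and 6, an alternative chosen after seeing the data, 19 members were higher and 3 lower, and IFI44L (1.43, adjusted p = 0.0528) and IFI35 (0.64, adjusted p = 0.0781) did not pass. Without rhesus macaque 2 and 6, likewise chosen after seeing the data, 20 members were higher and 3 lower, and the pathway list gave 5 higher and 6 lower.

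Of 748 values of single members over 23 settings, 727 kept their direction and their side of the threshold and 12 changed sign, all in members that were not called. HERC5 was at 0.22 among males only, 0.0049 without macaque 5, 0.034 without macaque 6, 0.030 without macaque 2 and 6, and 0.43 without the 3 libraries. HERC6 was at 0.095 among males only and 0.52 without each gene's most counted exon, where IRF9 was at 0.016 and ISG20 at −0.073. ISG20 was at −0.19 without chimpanzee 2, −0.0082 without macaque 6 and −0.070 without the 3 libraries. PARP12 passed without its most counted exon (1.04, adjusted p = 0.0063). With libraries left out 1 at a time, HERC5 ran from −0.48 to 0.034 and ISG20 from −0.19 to 0.34. The cause was not tested. No paired analysis applied, because each line came from its own individual and no chimpanzee line is the partner of a macaque line. Depth limits RSAD2, CMPK2, IFIT1, IFIT3 and SAMD9, which had at most 4 counts over all macaque libraries.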
